A study of Rattus norvegicus with 6 samples.

Results

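Inducible heat shock chaperones and their co-chaperones were examined in whole blood of rats after middle cerebral artery occlusion (MCAO). The 10 genes were Hsp90aa1, Hsp90ab1, Hsph1, Hspa1a, Hspa8, Dnaja1, Dnajb1, Cacybp, Hspd1 and Hspe1, and they were found by symbol in the annotation of the array. They were 10 of the 14863 genes named there and took up 17 of the 31042 probe sets tested, a probe set being the group of short probes that measures 1 transcript. The genes had been picked with their difference between the MCAO and sham groups known, so that difference is given as a description and without a test.

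The MCAO group held 3 and the sham group 3 male Sprague-Dawley rats, 8 weeks old, without any genetic change, and 1 array was run per rat. In the MCAO group a silicone-coated thread was passed up the left internal carotid artery until it closed the origin of the middle cerebral artery, and was later withdrawn. In the sham group the thread was uncoated, while the ligated carotid arteries, the isoflurane and the time in a warmed incubator were the same in both groups. Blood was drawn from the heart 24 h after reperfusion. Only MCAO rats with an infarct of chosen size were kept, so the group does not cover the full span of the model, and whole blood mixes red cells, platelets and leukocytes.

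Heat shock proteins fold, hold and refold other proteins. The Hsp70 proteins bind unfolded stretches with the help of J-domain partners and exchange factors, and pass some clients on to Hsp90. When unfolded protein builds up, heat shock factor 1 is set free, forms trimers and binds heat shock elements, which are inverted repeats of GAA and TTC in front of its target genes. Some members, such as Hspa1a and Dnajb1, are kept low at rest and induced by stress, whereas Hspa8 and Hsp90ab1 are made in nearly all cells at all times.

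The heat shock elements were looked up first, since the genes other than Hspd1 and Hspe1 turned out to vary together over the rats. RefSeq promoters of the GRCr8 build, from 250 bases before to 50 after the start, were found for 9 of 10 genes, all but Hsp90aa1. They were searched on both strands for 2 units (GAANNTTC or TTCNNGAA, each its own reverse complement) and for 3 units in a row, in which GAA and TTC take turns with 2 free bases after each, so that every longer match also holds the shorter. Of the 9 promoters, 7 held 2 units and 5 held 3, against 15.9% and 0.798% of all 33469 promoters. The 5 with 3 units were those of Hsph1, Hspa8, Dnaja1, Hspd1 and Hspe1. The stretches below lie before the start and show the longest match of each, with the matched units in capitals. The mitochondrial pair, Hspd1 and Hspe1, sits head to head and shares 1 element of 4 units, which 0.0478% of the promoters held. This element counts for both promoters and is printed once.
Hsph1 (chr12:10427312-10427364, plus strand): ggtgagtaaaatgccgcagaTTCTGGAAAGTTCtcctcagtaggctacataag
Hspa8 (chr8:50080439-50080491, plus strand): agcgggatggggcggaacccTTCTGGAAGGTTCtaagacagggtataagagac
Hspa8, upstream (chr8:50080281-50080333, plus strand): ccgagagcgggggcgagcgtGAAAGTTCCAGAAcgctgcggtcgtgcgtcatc
Hspe1 and Hspd1 (chr9:64084242-64084299, plus strand): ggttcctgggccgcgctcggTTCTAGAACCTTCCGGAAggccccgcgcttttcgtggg
Dnajb1 (chr19:41431142-41431172, minus strand): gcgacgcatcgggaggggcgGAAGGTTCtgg
Cacybp (chr13:74981240-74981271, minus strand): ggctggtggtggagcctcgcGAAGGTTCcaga
Dnajb1 and Cacybp had the same 2 units, GAAGGTTC, close to the start, and Dnaja1 had its 3 units, GAACTTTCCAGAA, 10 to 22 bases past the start. Hspa1a and Hsp90ab1 had no match in the window. A match describes the letters only and is no measured binding site.

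The deposited values carry a property that shapes everything below. The authors processed the 6 arrays with DFW (Distribution Free Weighted), which contracts differences between arrays strongly and unequally, and the values were taken as log2. The range over the 6 arrays reached 0.01 in 168 of the 31042 probe sets (0.541%), and 93.0% of the probe sets had an SD under 0.0001. Of the 17 chaperone probe sets, 12 reached that range. Even 2 probe sets of 1 gene differed in it, by 1.22 times for Dnajb1, 4.9 times for Hsph1 and 231 times for Hspa1a, so a larger log2 difference in 1 gene than in another on this scale is no measure of a larger change. The array medians lay between 5.56433 and 5.5644. By mean level the markers of blood cells ranged widely over the percentiles of the array, with 99.3 to 99.99 for the 4 erythroid, 96.4 to 99.8 for the 4 platelet, 84.5 to 96.1 for the 6 T cell, 75.8 to 92.6 for the 3 B cell, 63.8 to 91.3 for the 4 monocyte and 47.5 to 99.1 for the 5 neutrophil markers measured.

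Higher values in the MCAO group were seen for 8 of the 10 genes. By Rank Products, which ranks all probe sets by each of the 9 MCAO-minus-sham array differences and is the method the study names, 14 of the 17 probe sets were called higher at a false discovery rate (FDR) under 0.05 and none lower, where 0.129% of all probe sets were called higher and 0.606% lower. That balance over the array, 40 higher and 188 lower, turned over with single sham rats left out, to 47 and 43 without sham rat 1, 48 and 21 without sham rat 2 and 56 and 12 without sham rat 3. Nothing is read from the 14 of 17, because the genes were picked on the same contrast. The ranks follow the size of each array difference, so on the DFW scale a wide range favours a call. S100a9, a neutrophil marker, was called lower although its mean was higher in the MCAO group, by 0.0027 (SE 0.028). A call is thus no test of a difference between the group means. Called higher were both probe sets of Hsp90aa1, Hsp90ab1, Hsph1, Dnajb1, Dnaja1 and Cacybp, 1 of 2 for Hspa1a and the single one for Hspa8. Hspd1 and Hspe1 were not called. By limma no probe set of the array was called (0% of 31042, smallest adjusted p = 1) while 1150 had an unadjusted p under 0.05, of which 3 were chaperone probe sets.

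**Figure D1:**
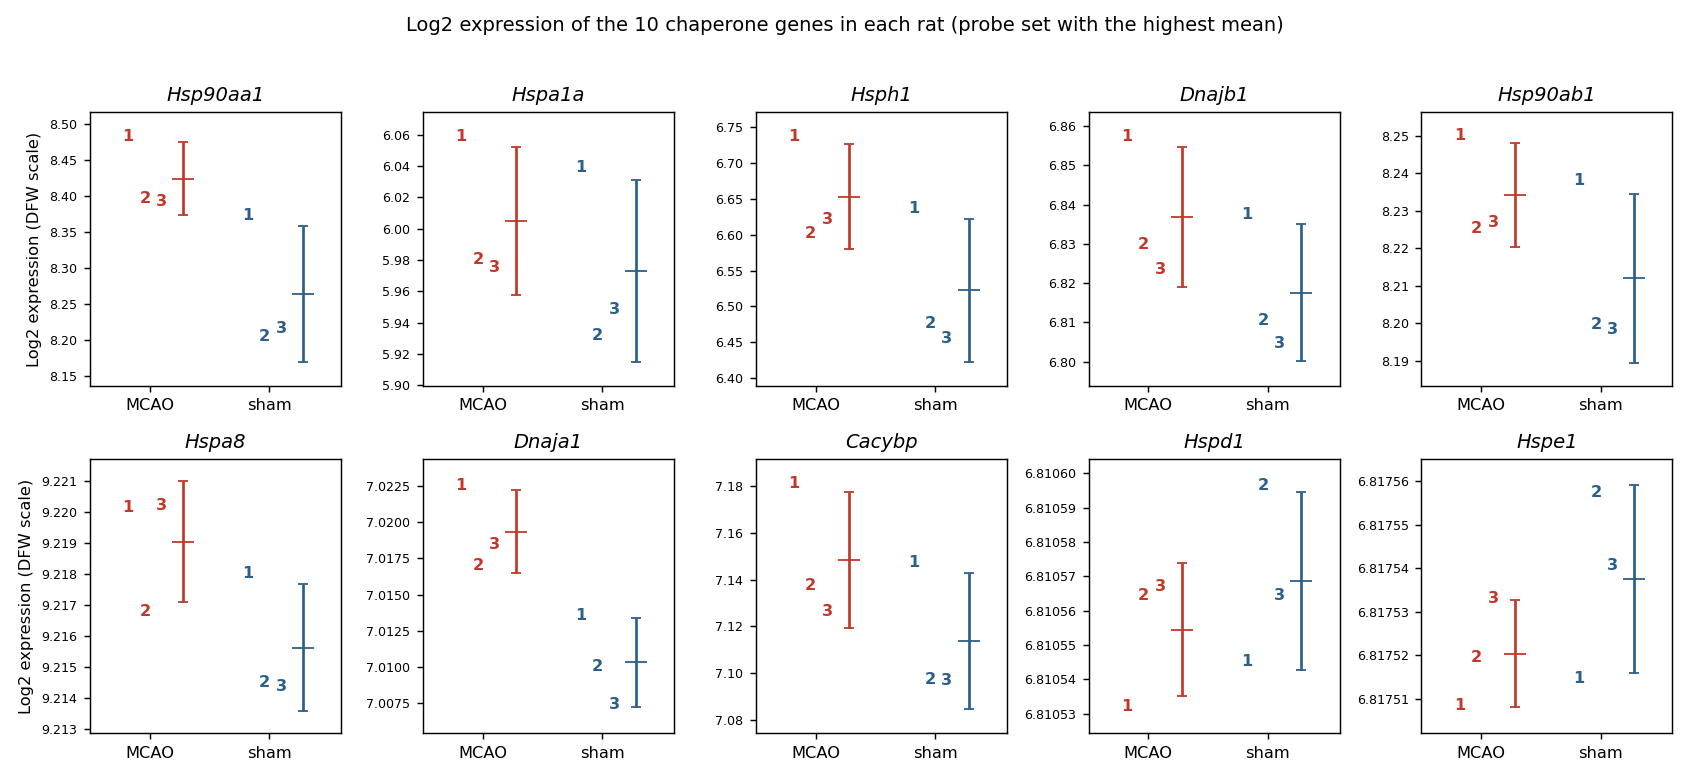
Levels of the 10 chaperone genes (y axis, log2, DFW scale) at each gene's brightest probe set, MCAO group left and sham group right, where digits mark the rat and bars show the mean and SD (n = 3 each). Each panel has its own y axis, which starts above 0. Rat 1 lay highest within each group for the cytosolic chaperones, apart from MCAO rat 3 for Hspa8, and Hsp90aa1 and Dnaja1 were the genes whose groups did not overlap.

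Hsp90aa1 encodes the inducible cytosolic Hsp90, which holds kinases and steroid receptors in a state ready for activation. Its dimmer probe set gave 7.954, 7.844 and 7.839 in MCAO rats 1 to 3, against 7.797, 7.606 and 7.607 in sham rats 1 to 3. The groups did not overlap, but sham rat 1 lay nearer to MCAO rats 2 and 3 than to the other sham rats. The log2 difference was 0.21 (SE 0.069). At the brighter probe set the values were 8.483, 8.397 and 8.393 in the MCAO group, against 8.373, 8.204 and 8.215 in the sham group, again without overlap, with a log2 difference of 0.16 (SE 0.059). Both probe sets also match a pseudogene, Hsp90aa1-ps17, in the annotation. Every MCAO rat lay above every sham rat at 3 of the 17 chaperone probe sets, these 2 and 1 of Dnaja1, where 4.82% of all probe sets were so ordered. None of the 17 had every MCAO rat below every sham rat, as 3.6% of all probe sets had.

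Hsph1 encodes Hsp110, which exchanges the nucleotide of Hsp70. Its brighter probe set gave 6.737, 6.602 and 6.621 in MCAO rats, against 6.636, 6.476 and 6.455 in sham rats. Sham rat 1 lay above MCAO rats 2 and 3, and the other sham rats lay well below. The log2 difference was 0.13 (SE 0.067), and 0.025 (SE 0.014) at the dimmer probe set.

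Hspa1a, the stress-induced Hsp70, gave 6.059, 5.980 and 5.975 in MCAO rats, against 6.039, 5.932 and 5.948 in sham rats at the brighter probe set. MCAO rat 1 and sham rat 1 stood together above the other 4 rats. The log2 difference was 0.032 (SE 0.040), smaller than its error, and single rats decided it, with 0.0048 without MCAO rat 1 and 0.065, 0.011 and 0.019 without sham rat 1, 2 or 3. The other probe set, which also matches the twin gene Hspa1b, kept the order of these 2 rats within a range of 0.00055 and was not called.

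Dnajb1, the J-domain protein that works with inducible Hsp70, gave 6.857, 6.830 and 6.824 in MCAO rats, against 6.837, 6.811 and 6.805 in sham rats at the brighter probe set. Here too sham rat 1 fell between MCAO rat 1 and MCAO rats 2 and 3, with a log2 difference of 0.019 (SE 0.014), and of 0.021 (SE 0.018) at the dimmer one. At the brighter one it was 0.0091 without MCAO rat 1 and 0.029 without sham rat 1. Cacybp, a partner of Siah1 with a CS domain like that of Hsp90 co-chaperones, showed the same order, with 7.181, 7.137 and 7.126 in MCAO rats and 7.147, 7.097 and 7.097 in sham rats at the brighter probe set. Its log2 differences were 0.035 (SE 0.022) and 0.015 (SE 0.012), and the first was 0.018 without MCAO rat 1.

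Among the constitutive members, Hsp90ab1, the Hsp90 of unstressed cells, gave 8.250, 8.225 and 8.227 in MCAO rats, against 8.238, 8.200 and 8.198 in sham rats at the brighter probe set. Its log2 differences were 0.022 (SE 0.014) and 0.032 (SE 0.019), the first being 0.014 without MCAO rat 1 and 0.035 without sham rat 1, and sham rat 1 again lay above MCAO rats 2 and 3. Hspa8, the constitutive Hsc70 that also uncoats clathrin vesicles, gave 9.2201, 9.2168 and 9.2202 in MCAO rats, against 9.2180, 9.2145 and 9.2144 in sham rats. Its single probe set also matches Haus8l2 in the annotation. MCAO rats 1 and 3 shared the highest level, unlike in the other genes, and the log2 difference was 0.0034 (SE 0.0015). Dnaja1, a J-domain partner of Hsc70, gave 7.0225, 7.0170 and 7.0185 in MCAO rats, against 7.0135, 7.0100 and 7.0074 in sham rats at the brighter probe set. These groups did not overlap, with a log2 difference of 0.0090 (SE 0.0023), while at the dimmer probe set sham rat 1 lay above MCAO rat 3 and the difference was 0.0022 (SE 0.0011).

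Hspd1 and Hspe1, which form the mitochondrial chaperonin and its lid, hardly varied. Hspd1 gave 6.81053, 6.81056 and 6.81057 in MCAO rats, against 6.81055, 6.81060 and 6.81056 in sham rats. Hspe1 gave 6.81751, 6.81752 and 6.81753 in MCAO rats, against 6.81751, 6.81756 and 6.81754 in sham rats. Both were lowest in MCAO rat 1 and highest in sham rat 2. The log2 differences of -1.4e-05 (SE 1.8e-05) and -1.7e-05 (SE 1.4e-05) were about as large as their errors and turned to 1.6e-05 and 1.3e-05 when each array was centred on its median. After quantile normalization these differences were -0.000114 and -0.000108. Without 1 rat they lay between -2.6e-05 and -2.8e-07 for Hspd1 and between -2.9e-05 and -7.2e-06 for Hspe1, in both cases lowest without sham rat 1 and nearest to 0 without sham rat 2.

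The order of the rats was thus nearly the same in gene after gene. MCAO rat 1 had the highest value of all 6 rats in 14 of the 17 probe sets, against 30% of all probe sets. In 14 of the 17, MCAO rat 1 was highest in its group and sham rat 1 highest in its group at once, against 18.8% of all probe sets. In all 15 cytosolic probe sets sham rats 2 and 3 lay below every MCAO rat, an order that follows in part from how the genes were picked and was found in 12.3% of all probe sets. Sham rat 1 lay above both MCAO rats 2 and 3 in 10 of these 15. Leaving out MCAO rat 1 reduced the chaperone probe sets called higher to 3, the 2 of Hsp90aa1 and the brighter one of Dnaja1. Leaving out any other rat kept 12 to 14 of the 14. Higher calls over the whole array also became fewer, from 40 to 14 once MCAO rat 1 was dropped. Dropping MCAO rat 2 left 17 of them, and dropping MCAO rat 3 left 20. A loss of higher calls was thus not particular to the chaperones, nor over the array to MCAO rat 1.

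**Figure D2:**
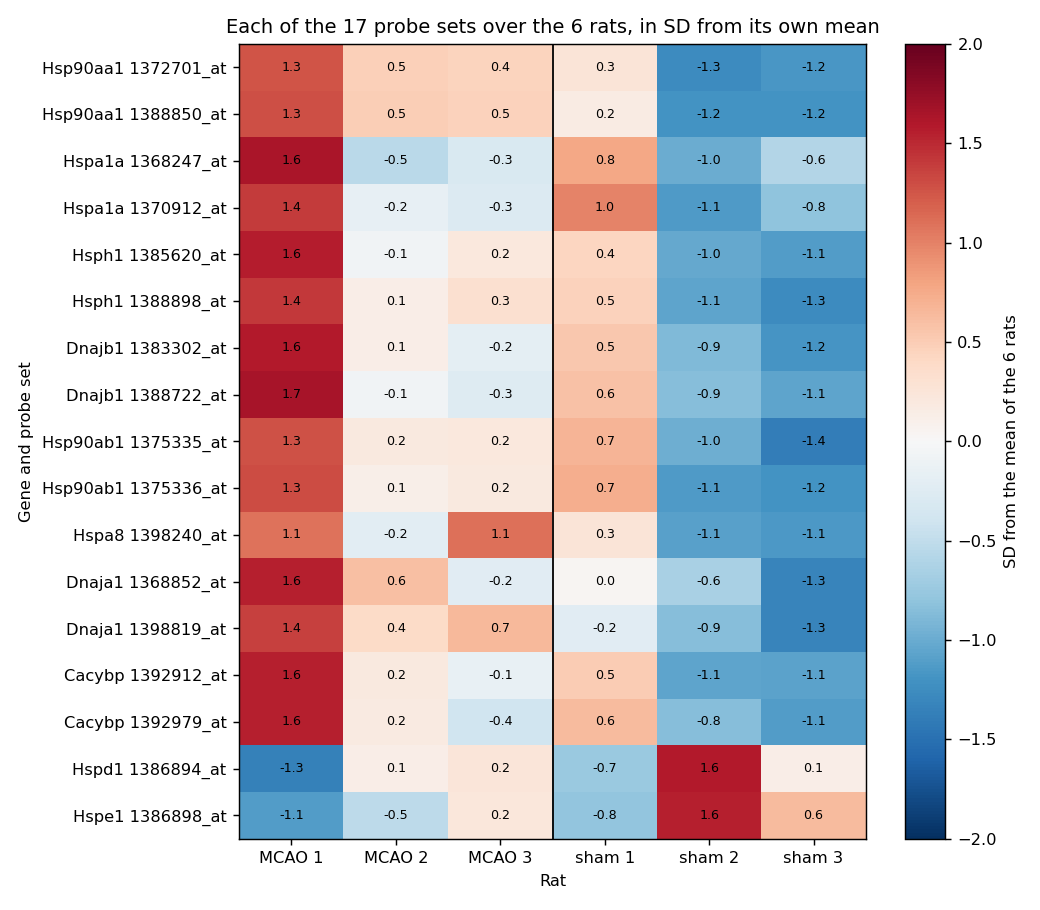
Each row is 1 of the 17 chaperone probe sets and each column 1 rat, MCAO left of the black line and sham right of it, with the value in SD from the mean of the 6 rats for that probe set (colour and number). Red cells fill the MCAO rat 1 column and pale red cells most of the sham rat 1 column, sham rats 2 and 3 are blue in all 15 cytosolic rows, and the Hspd1 and Hspe1 rows run the other way.

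Co-variation was measured against the dimmer probe set of Hsp90aa1, the wider in range, as Pearson's r over the 6 rats. Of the 16 other chaperone probe sets, 10 had r of at least 0.9, against 1.84% of the 31041 other probe sets of the array. The values were 0.998 for the other probe set of Hsp90aa1, 0.97 and 0.94 for Hsph1, 0.97 and 0.91 for Dnaja1, 0.95 and 0.95 for Hsp90ab1, 0.93 and 0.87 for Cacybp, 0.91 and 0.87 for Dnajb1, and 0.90 for Hspa8. Hspa1a had 0.81 and 0.74, and Hspd1 and Hspe1 had -0.75 and -0.87. Spearman's rho lay between 0.66 and 1 for the 14 cytosolic probe sets and was -0.71 for Hspd1 and -0.83 for Hspe1. Over the 720 orders of the rats the exact permutation p was 0.00139 (the smallest possible) to 0.0931 for r and 0.00278 to 0.175 for rho, and the Benjamini-Hochberg values over all 31041 probe sets were 0.400 to 0.532 for r and 0.498 to 0.693 for rho, so none passed that correction. Without sham rats 2 and 3, which lay farthest from the median of Hsp90aa1, 2 of the 16 kept r of at least 0.9, and the relation over all rats rests in part on them.

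Part of that r is the difference between the groups through which the genes were picked. The deviations of each rat from its group mean hold none of that difference, although they leave fewer degrees of freedom. They are not free of the pick itself. The calls leaned on MCAO rat 1, with 3 of the 14 left without it, and genes picked through 1 high rat would in part share its deviation. The values on deviations are therefore a description. On these deviations r with Hsp90aa1 was 0.98 and 0.91 for the 2 probe sets of Hspa1a, 0.99 and 0.96 for Hsph1, 0.986 and 0.998 for Hsp90ab1, 0.96 and 0.94 for Cacybp, 0.95 and 0.94 for Dnajb1, 0.90 and 0.82 for Dnaja1 and 0.78 for Hspa8. In all, 11 of the 16 reached 0.9, against 3.09% of all other probe sets. Between the 8 cytosolic genes the 28 pairs had a median r of 0.92 (0.70 to 0.99) over the rats and of 0.95 (0.66 to 0.99) on deviations. The lowest r was that of Hspa1a with Dnaja1 over the rats, and the lowest on deviations were those of Hspa8 with Dnajb1 and Cacybp. Hspd1 and Hspe1 correlated with each other at 0.93. After centring on the median their r with Hsp90aa1 was 0.31 and 0.34, and after quantile normalization -0.41 and -0.053. Their inverse course thus depended on the setting.

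Probe sets that vary as widely as most of the chaperones were compared next. Among the 167 other probe sets with a range of at least 0.01, 8 (4.79%) had r of at least 0.9 with Hsp90aa1 and all 8 were chaperone probe sets, and the same held for the 10 (5.99%) that reached 0.9 on deviations. Of the 127 among them that carry 1 symbol and are no member, Hba-a3, an alpha globin gene, was most alike with r = 0.73, and 0.82 on deviations, which is above the 0.78 of Hspa8 and level with the dimmer probe set of Dnaja1. It gave 12.1249, 12.1237 and 12.0853 in MCAO rats, against 12.1244, 12.0782 and 12.0865 in sham rats, and MCAO rat 2 stood with both first rats there. Next came RT1-T24-4 (r = 0.55), Ctrb1 (0.29), Stfa2l2 (0.13) and Slpi (0.11). The range includes the difference between the groups, so this comparison is not free of the pick. The 8 and the 10 also count probe sets rather than genes. Each count holds the other probe set of Hsp90aa1 itself and both of Hsph1 and of Hsp90ab1. Of the 168 probe sets with a range of at least 0.01, 21 were called higher, and 12 of these were chaperone probe sets. Over the whole array 570 other probe sets had r of at least 0.9, of which 8 had that range.

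**Figure D3:**
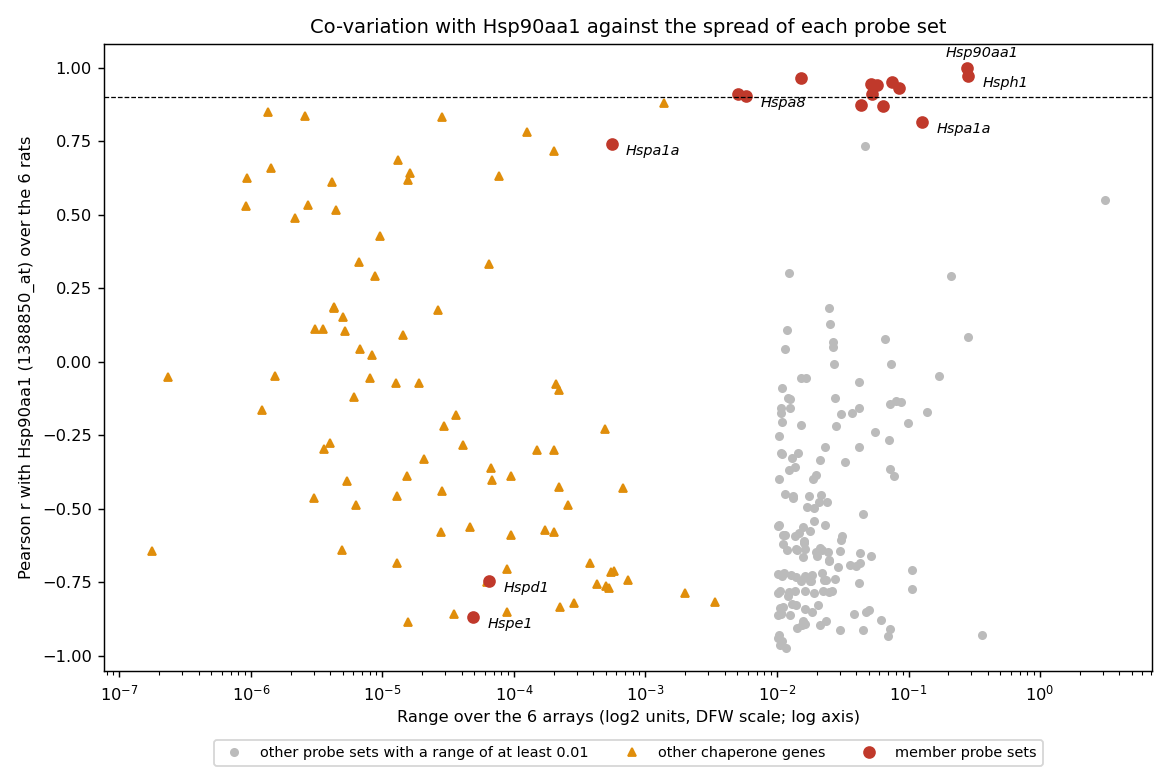
Pearson r with Hsp90aa1 over the 6 rats (y axis) against the range over the 6 arrays in log2 units (x axis, log scale), for the 16 other chaperone probe sets (red), the 85 measured genes of the other chaperone lists (orange) and the other probe sets with a range of at least 0.01 (grey). The dashed line marks 0.9, above which no grey or orange point lies. Probe sets of smaller range outside the members and these lists are not shown.

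Inducible and constitutive relatives were then set side by side within each rat. For Hsp90aa1 minus Hsp90ab1, centred on the mean of the 6 rats, the values were 0.11, 0.050 and 0.045 in MCAO rats, against 0.014, -0.12 and -0.10 in sham rats, a log2 difference of 0.14 between the groups, which did not overlap. For Hspa1a minus Hspa8 they were 0.067, -0.0079 and -0.017 in MCAO rats, against 0.050, -0.054 and -0.038 in sham rats, a difference of 0.028 with overlap at sham rat 1. For Dnajb1 minus Dnaja1 the difference was 0.010, and the groups overlapped. Both of these rested on single rats. Hspa1a minus Hspa8 was 0.0020 without MCAO rat 1, 0.044 without MCAO rat 3 and 0.060, 0.0083 and 0.017 without sham rat 1, 2 or 3, and Dnajb1 minus Dnaja1 was 0.0017 without MCAO rat 1, 0.016 without MCAO rat 3 and 0.019 and 0.0053 without sham rat 1 or 3. All 3 differences were positive, but each constitutive relative also had the narrower range on the DFW scale (0.052, 0.0058 and 0.015, against 0.28, 0.13 and 0.053 for the inducible ones). Divided by its own SD within the groups, the difference had no common order. It was larger for Hsp90aa1 (2.10 and 2.32) than for Hsp90ab1 (1.18 and 1.26), smaller for Hspa1a (0.49 and 0.60) than for Hspa8 (1.71), and smaller for Dnajb1 (0.90 and 1.09) than for Dnaja1 (1.61 and 3.04). Relatives followed each other over the rats with r = 0.96 for the Hsp90 pair, 0.73 for the Hsp70 pair and 0.86 for the J-domain pair.

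**Figure D4:**
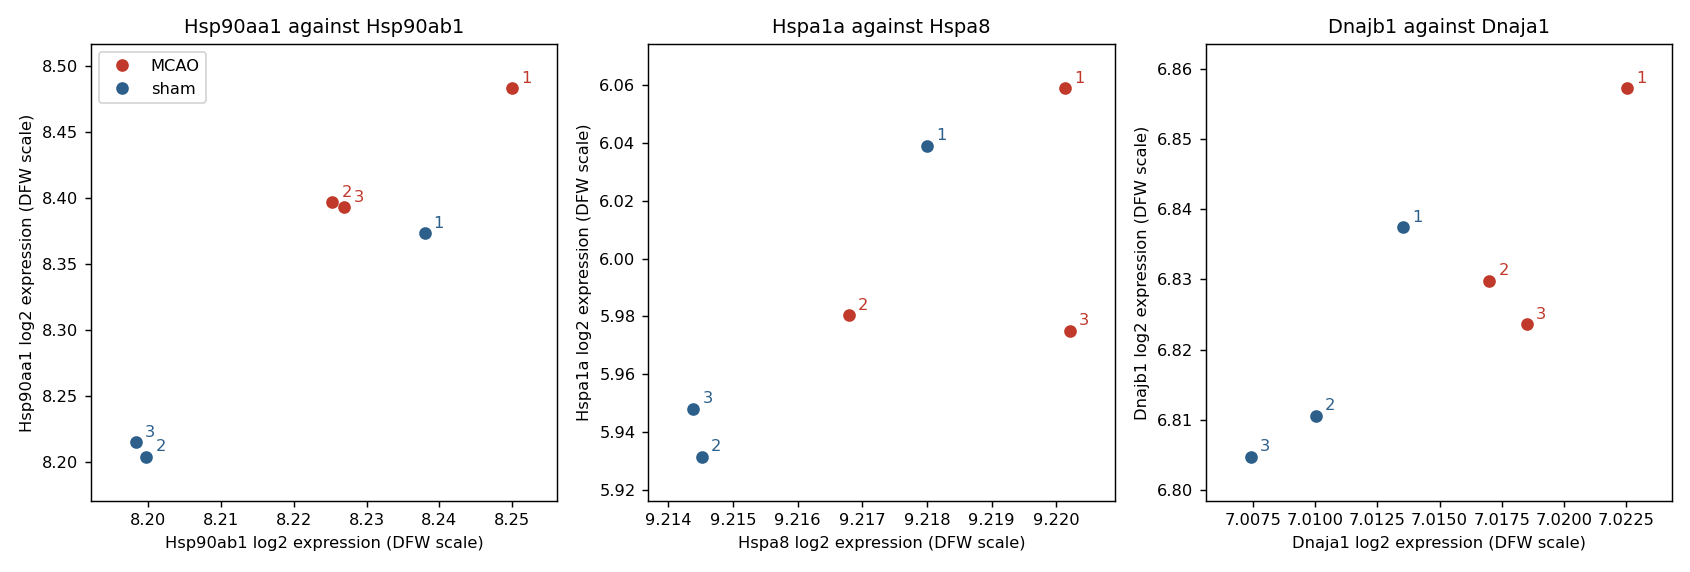
Log2 expression (DFW scale) of the inducible gene (y axis) against its constitutive relative (x axis) in each rat, with MCAO rats in red, sham rats in blue and the rat's number beside each point. Each panel has its own axes, which start above 0. MCAO rat 1 is at the upper right in each panel, or level with MCAO rat 3 on the Hspa8 axis, and sham rats 2 and 3 are at the lower left.

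**Figure D5:**
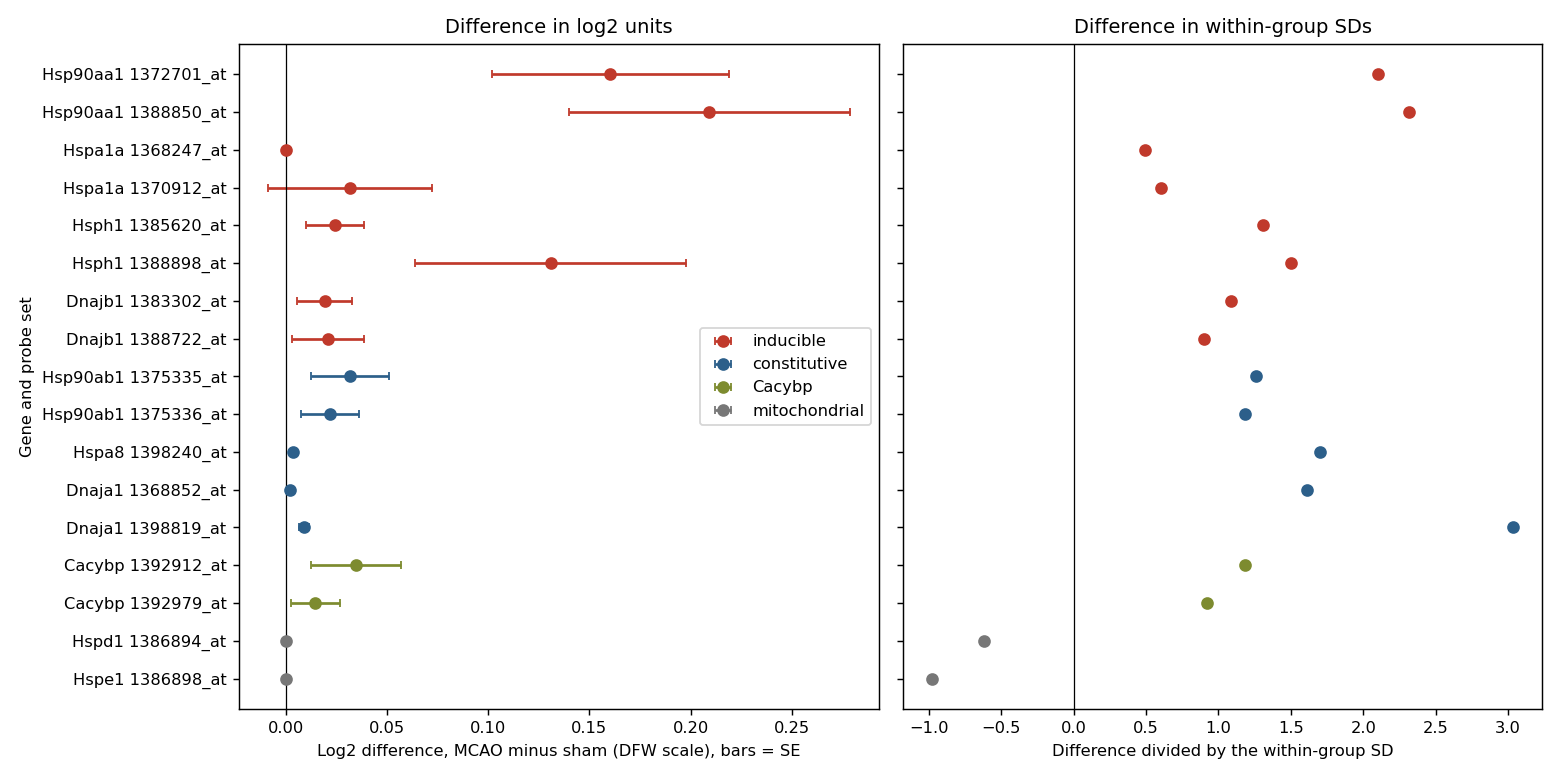
Log2 difference of the MCAO group minus the sham group for the 17 chaperone probe sets, with SE bars (left, DFW scale), and the same difference divided by the SD within the groups (right). On the left the points of Hsp90aa1 lie at 0.21 and 0.16, and on the right Dnaja1 (brighter probe set) lies at 3.04 and Hspa1a at 0.49 and 0.60.

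The wider chaperone system was covered by 85 measured genes in 8 lists outside the members. None was called in either direction, which is near the 0.734% of all probe sets that were, and 43 had the higher mean in the MCAO group, against 53.4% of all probe sets. Their median log2 difference was 3.0e-09, and that of all probe sets was 6.7e-08. None had r of at least 0.9 with Hsp90aa1 and none reached a range of 0.01, again near the shares of all probe sets (1.84% and 0.541%). The genes that came closest were Dnaja4 with r = 0.88 and 0.94 on deviations, Hspbp1, an exchange factor of Hsp70, with 0.85 and 0.77, Aarsd1 with 0.83 and 0.88, and Hsf4, a heat shock factor, with 0.83 and 0.90. Their ranges over the arrays were 0.0014, 1.3e-06, 2.6e-06 and 2.8e-05, against 0.35 for Hsp90aa1 and a median of 6.6e-06 for all probe sets. The r of Hspbp1, Aarsd1 and Hsf4 thus rest on nearly constant values. Dnaja4 varied more than the dimmer probe set of Hspa1a (range 0.00055). Over the 6 rats its r was above those of both Hspa1a probe sets (0.81 and 0.74). Among 12 Hsp90 co-chaperones, Ptges3, the p23 protein, had the largest difference with -0.00057 (SE 0.00059). Among 17 further J-domain genes it was Dnaja4 with 0.00044 (SE 0.00036). Among 13 genes of the cytosolic chaperonin TRiC and of prefoldin it was the TRiC subunit Cct4 with -0.0011 (SE 0.00084), and r = -0.82. Calr, the calreticulin of the endoplasmic reticulum, had -0.00020 (SE 0.00019) among 12 genes of that compartment. The largest differences among 9 heat shock factors and regulators (Bag1, -1.8e-05, SE 8.0e-06), 7 further Hsp70 genes (Hspa14, -3.7e-05, SE 2.1e-05), 8 small heat shock genes (Cryaa, 3.5e-06, SE 4.6e-06) and 7 mitochondrial chaperones and proteases (Hspa9, -3.2e-05, SE 2.5e-05) lay nearer to 0. Of 72 genes of these lists with a promoter in the table, 3 held 3 heat shock units, Cct4, Chordc1 and Serpinh1, and none of them was called, with r of -0.82, -0.22 and 0.043.

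Lymphocyte markers ran against the chaperones over the rats. All 6 T cell markers had r of -0.8 or lower with Hsp90aa1 (-0.90 to -0.85), as had 2 of 3 B cell markers (Ms4a1, -0.95) and 1 of 4 erythroid markers (Slc4a1, -0.92), against 5.06% of all probe sets. On deviations from the group means 5 of the 6 T cell markers (all but Cd3d, -0.75), Ms4a1 (-0.90) and Slc4a1 (-0.86) still had r of -0.8 or lower, whereas the other B cell markers, Cd79b and Cr2, had -0.65 and -0.45. The share of all probe sets with such an r on deviations was not counted. Genes outside the marker lists reached it too, such as Cd36 (-0.92 and -0.96), Car2 (-0.93) and Rpl3 (-0.87), so it was not particular to lymphocyte markers. The summed log2 value of the T cell markers lay between 39.7433 and 39.7689 in MCAO rats and between 39.7625 and 39.7800 in sham rats. That of the B cell markers lay between 18.6793 and 18.6867 in MCAO rats and between 18.6871 and 18.6921 in sham rats. None of the 5 neutrophil, 4 monocyte and 4 platelet markers had such an r, with values between -0.67 and 0.42. Of the 31 markers in these lists 26 had a probe set annotated with that symbol alone, and probe sets with several symbols were not searched. Without a background estimate it is not known which of the 26 were detected. The part of cell composition in the chaperone values was not tested, and in whole blood fewer cells of a type and less RNA per cell cannot be told apart.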

How the data were processed

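Whole-blood RNA of 3 MCAO and 3 sham rats was hybridised to GeneChip Rat Genome arrays, 1 per rat. The authors normalized the 6 arrays together with DFW and deposited a single value for each of 31099 probe sets on each array, taken as log2 from their span (4.93 to 14.4), since no base is stated. No background estimate comes with them, and precision is limited by how few arrays there are. After 57 control probe sets were left out, 31042 were tested. Rank Products was rewritten in Python 3.11.15 (numpy 2.4.6, pandas 2.3.3) with 9 array differences and 100 permutations, and limma 3.58.1 (R 4.3.3) gave log2 differences and SEs. The code was run on simulated data with 1 spread for all probe sets. The spreads here are small and unequal, so that run does not show how the methods behave on these values. The probe set with the highest mean stood for a gene.

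The members, the lists and the tests were chosen with earlier results of these data known. Named were all member probe sets, any called gene and the gene with the largest difference of each other chaperone list, and the 5 probe sets most like Hsp90aa1. Marker values, Cd36, Car2, Rpl3, Chordc1, Serpinh1, Hspbp1, Aarsd1 and Hsf4 were named for their correlation or promoter. Nothing says whether rats shared a litter or day. Alternatives were limma, same-numbered rats as blocks, quantile normalization, median centring, the brighter 15521 probe sets, an FDR of 0.01, a gene's other probe sets and the omission of 1 rat at a time.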

Additional observations from a re-analysis of the deposited data

How the results depend on the processing

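The 14 chaperone probe sets called higher by Rank Products became 0 with limma and 0 with limma and the replicate block. With Rank Products on same-numbered rats only (the replicate block) they stayed the same 14. They were 13 after quantile normalization, and 14 with median centring, the brighter 15521 probe sets or an FDR under 0.01, and 3 to 14 without 1 rat (3 without MCAO rat 1). The number of all probe sets called was 228, and became 351 with the replicate block, 107 after quantile normalization, 120 among the brighter 15521, 79 at an FDR under 0.01, 0 with limma with or without the block, and 68 to 358 without 1 rat (358 without MCAO rat 3, 90, 69 and 68 without sham rat 1, 2 or 3). The share called higher was 17.5%, and became 34.2% at an FDR under 0.01. It fell to 5.22% with MCAO rat 1 omitted, 9.29% with MCAO rat 2 and 5.59% with MCAO rat 3, and reached 52.2% with sham rat 1 omitted, 69.6% with sham rat 2 and 82.4% with sham rat 3. The labels give nothing that same-numbered rats share beyond the number. Deviations of same-numbered rats correlated at 0.211, 0.0400 and 0.0661 over all probe sets, and those of differently numbered rats at -0.232 to 0.166. The highest value was that of MCAO rat 1 with sham rat 1, and a factor shared by these rats was not tested. Of the other chaperone genes 0 were called, 2 with the replicate block (Dnaja4 higher, Cct4 lower) and 0 to 1 without 1 rat (Dnaja4 higher without sham rat 1). The number of the 9 other genes with r of at least 0.9 with Hsp90aa1 was 6, and 3 to 6 without 1 rat, with 3 without MCAO rat 1. The causes were not tested.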

Other observations

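Immediate early genes are switched on by many cells within minutes of a stimulus. Of 10 measured (Fos, Fosb, Jun, Junb, Egr1, Ier2, Atf3, Dusp1, Zfp36 and Nr4a1), 0 were called in either direction by Rank Products, which is near the 0.734% of all probe sets called. Their r with Hsp90aa1 over the 6 rats lay between -0.54 and 0.46, and between -0.84 and 0.77 on deviations from the group means. Dusp1, a phosphatase of MAP kinases, had the largest log2 difference with 0.00045 (SE 0.00095), smaller than its error.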
